A study of Mus musculus with 6 samples.

Results

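Elf5, Eomes, Tfap2c, Ascl2, Gcm1, Dlx3 and Gata3 are transcription factors that act in trophoblast, the outer cell lineage of the mouse conceptus that builds the placenta. These 7 genes were chosen by name, as factors of trophoblast progenitors and of the branches that leave them, from 19505 named genes on the array. Each had 1 probe with 1 spot per array. In 6 cases the array carried the current symbol, and Tfap2c was found through its RefSeq accession, since the array calls it Tcfap2c. RNA of whole mouse embryos, taken 8.5 days after conception (E8.5), was measured on 1-colour Agilent arrays, 1 array per sample. The Brg1d/d group, named conditional knockout (CKO) in the labels, held 3 samples, and the Brg1fl/fl group, with the floxed gene intact and named wild type, held 3 samples. Per the labels the dam was injected with tamoxifen, and this protocol is given for both genotypes. The promoter that drives the recombinase, the deleted exons, and the number of embryos behind each sample are not given in the labels or files. Brg1, gene symbol Smarca4, is an ATPase that moves nucleosomes as part of the SWI/SNF complexes.

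In the mouse, trophoblast progenitors first lie in the trophectoderm of the blastocyst and then in the extraembryonic ectoderm, where signals of the FGF and Nodal pathways keep them dividing. Elf5, Eomes and Tfap2c are known to maintain this progenitor state. Ascl2 acts in the spongiotrophoblast, the supporting layer of the placenta, Gcm1 and Dlx3 in the labyrinth, where mother and embryo exchange nutrients, and Gata3 in the trophectoderm and in trophoblast giant cells. Several of the factors also have roles in the embryo itself. Eomes acts in the primitive streak, Tfap2c in germ cells and surface ectoderm, Dlx3 in skin, and Gata3 in the ear and kidney among other organs.

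Elf5, Eomes, Tfap2c and Ascl2 were higher in the Brg1d/d embryos, by 9.36-fold, 8.38-fold, 5.27-fold and 5.13-fold. Gata3 and Dlx3 lay higher in every Brg1d/d sample than in any Brg1fl/fl sample, as did 22.8% of genes tested. Neither factor passed the test, and Gcm1 was close to the detection limit in both genotypes and was not tested. Of the 6 factors tested, 4 passed upwards and 0 downwards at an adjusted p under 0.05 in limma, a linear model fitted over all 27854 probes, and 5 and 0 had an unadjusted p under 0.05. Over all 15027 genes tested, 5.26% passed upwards and 5.3% downwards at the adjusted p. Of the same genes, 17.8% had an unadjusted p under 0.05 upwards and 14.7% downwards. Over all 27854 probes, 5.03% passed the adjusted p upwards and 9.37% in either direction. The rises of Elf5, Eomes, Tfap2c and Ascl2 were known when the genes were chosen, so the count is a description of them. The median difference of the 6 factors was 2.38 on the log2 scale, and the median over all genes was 0.07.

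The arrays were scanned on 3 days. The Brg1fl/fl arrays shared 1 day and 1 slide with one another, and Brg1d/d replicate 2 shared that day on a slide of its own. The remaining Brg1d/d arrays, replicates 1 and 3, had a day and a slide each, and their brightest spike-in probe read 12934 and 6905 units, against 208550 to 241121 units on the other 4 arrays. Slide and genotype cannot be told apart. Each factor is therefore given also as its same-day difference, Brg1d/d replicate 2 minus the mean of the 3 Brg1fl/fl arrays, which has 1 knockout sample and no replicate. One probe of the targeted gene Smarca4 lay at 1.75, 1.21 and 1.46 in Brg1d/d replicates 1, 2 and 3, against 4.04, 3.77 and 3.38 in Brg1fl/fl replicates 1, 2 and 3. Whether any of its 3 probes lies in the deleted part is not known. The log2 differences of the 3 Smarca4 probes were -2.25, -2.69 and -2.08 (limma adjusted p 0.00544, 0.0114 and 0.0129).

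The probes of the 4 factors that rose are 60-base oligonucleotides. The first 30 bases of each are shown, and the reported signals were read from the whole 60-base probes.
Elf5: tgtctagtgaccggcactgaatagcaatgc
Eomes: caggtaaataaactgaagcagacctagcat
Tfap2c: tttatgcgagtgcacacagggtattgaaac
Ascl2: cttcccaccgcacccggttcctcgcgagca
In the array's annotation, of build mm7, the Elf5 probe lies at chr2:103301588-103301647 on the plus strand and the Tfap2c probe at chr2:172351014-172351073, also plus. The Eomes probe lies at chr9:118163832-118163891 on the plus strand and the Ascl2 probe at chr7:139395814-139395873 on the minus strand. No exon map of mm7 was at hand, so whether a probe lies in coding sequence is not stated. Because each gene had 1 probe, no second probe could check a value.

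Levels are log2 signals from which the 75th percentile of the array was subtracted, so that percentile lies at 0. Levels are compared between samples for 1 gene and never between genes, since probes differ in how they bind.

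**Figure D1:**
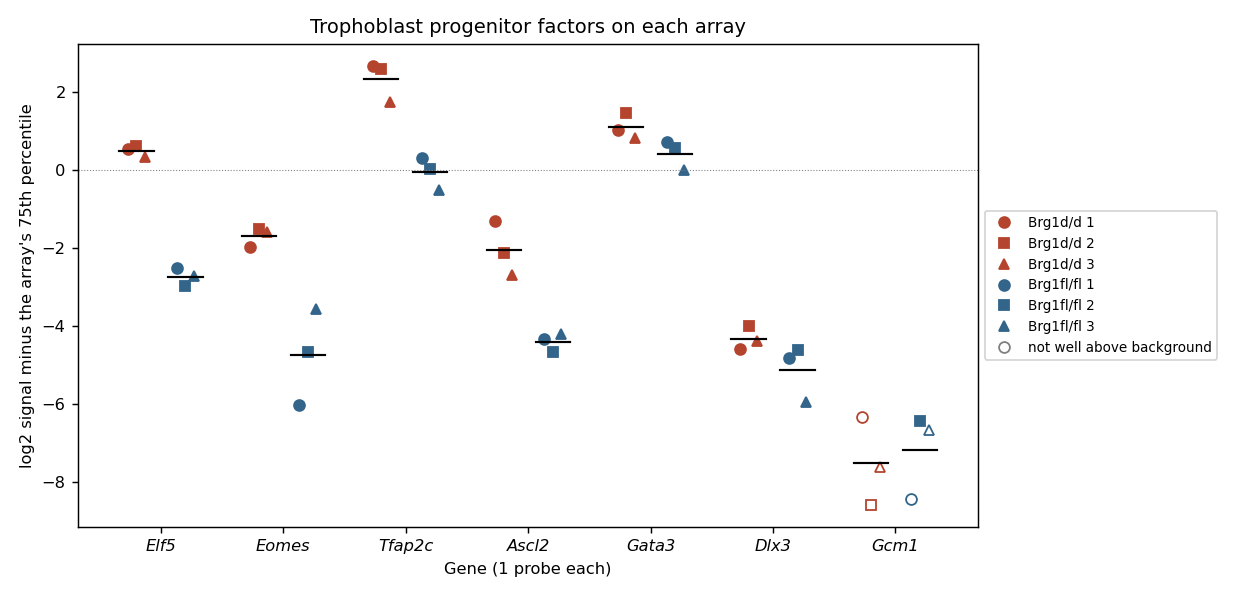
Level of each factor (log2, relative to the 75th percentile of its array) on the 3 Brg1d/d arrays (red, left of each pair) and the 3 Brg1fl/fl arrays (blue, right). Bars are group means (n = 3 each), symbols mark the replicate, and open symbols were not well above background. Elf5, Eomes, Tfap2c and Ascl2 stand clear of their controls by 1.43 or more between the nearest arrays, while Gata3 and Dlx3 are parted by 0.11 and 0.03.

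Elf5, an ETS family factor needed for the extraembryonic ectoderm, had levels of 0.53, 0.62 and 0.33 in Brg1d/d replicates 1, 2 and 3, against -2.51, -2.97 and -2.72 in Brg1fl/fl replicates 1, 2 and 3. The samples of each genotype lay close together, and the lowest Brg1d/d array was 2.84 above the highest Brg1fl/fl array. The difference was 3.23 ± 0.18 (SE, n = 3 and 3), with a limma adjusted p of 0.00113 and a same-day difference of 3.36. Of all 15027 genes tested, 0.16% had a larger rise. On the Brg1d/d arrays the Elf5 probe was brighter than 77.6% to 79.6% of all probes, and on the Brg1fl/fl arrays than 56.0% to 58.1%, a measure that does not depend on scaling between arrays. The signal itself was 2350, 1497 and 1988 units in Brg1d/d and 175, 129 and 146 units in Brg1fl/fl. Of the 4 factors that rose, Elf5 varied least among samples of one genotype, over a 1.23-fold range in Brg1d/d and a 1.37-fold range in Brg1fl/fl. It alone passed with the spike-in split as a block, and it missed the threshold only with scan day as a block (adjusted p 0.101) among the 16 alternatives run.

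Eomes, a T-box factor of trophoblast stem cells and of the primitive streak, had levels of -1.97, -1.50 and -1.59 in Brg1d/d, against -6.02, -4.67 and -3.56 in Brg1fl/fl. The Brg1d/d samples were alike, within a 1.38-fold range, while the Brg1fl/fl samples spread over a 5.50-fold range with replicate 1 lowest. The groups did not overlap, and the gap between the nearest arrays was 1.60. The difference was 3.07 ± 0.58 (SE, n = 3 and 3), with a limma adjusted p of 0.0290 and a same-day difference of 3.25. Without Brg1fl/fl replicate 1 it was 2.43 (adjusted p 0.0156), and it missed the threshold without Brg1d/d replicate 1 (adjusted p 0.100), without Brg1d/d replicate 3 (0.106), without Brg1fl/fl replicate 2 (0.109) and with no filter on dim probes (0.0610). The probe was dim in Brg1fl/fl, at 15.4, 39.6 and 81.1 units, with the lowest signal well above background on those arrays at 9.76, 7.86 and 8.15 units, and in Brg1d/d it read 417, 343 and 525 units. With another background correction, which adds an offset of 50 units, the difference was 1.68.

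Tfap2c, which encodes the AP-2 gamma factor of early trophoblast, had levels of 2.66, 2.60 and 1.73 in Brg1d/d, against 0.30, 0.03 and -0.52 in Brg1fl/fl. Replicate 3 was lowest in both genotypes, and the groups were parted by 1.43. The difference was 2.40 ± 0.33 (SE, n = 3 and 3), with a limma adjusted p of 0.0122 and a same-day difference of 2.66. Its probe was bright on every array, at 5264 to 10316 units in Brg1d/d and 667 to 1232 units in Brg1fl/fl, where background matters little. The call was lost without Brg1d/d replicate 1 (adjusted p 0.0636) and without Brg1fl/fl replicate 2 (0.0579).

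Ascl2, a basic helix-loop-helix factor expressed from the maternal allele in placenta, had levels of -1.31, -2.12 and -2.70 in Brg1d/d, against -4.32, -4.67 and -4.21 in Brg1fl/fl. Here the Brg1d/d samples were the more variable, over a 2.61-fold range with replicate 1 highest, against a 1.38-fold range in Brg1fl/fl. All Brg1d/d samples lay at least 1.51 above all Brg1fl/fl samples. The difference was 2.36 ± 0.36 (SE, n = 3 and 3), with a limma adjusted p of 0.0160 and a same-day difference of 2.28. It missed the threshold without Brg1fl/fl replicate 2 (adjusted p 0.0775), and with the offset of 50 units it was 1.38.

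With scan day as a block Eomes, Tfap2c and Ascl2 had limma adjusted p of 0.406, 0.198 and 0.163, and with the spike-in split as a block 0.226, 0.106 and 0.183. The differences in these fits are the same-day differences by construction, and rest on the single knockout array of the shared day.

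**Figure D2:**
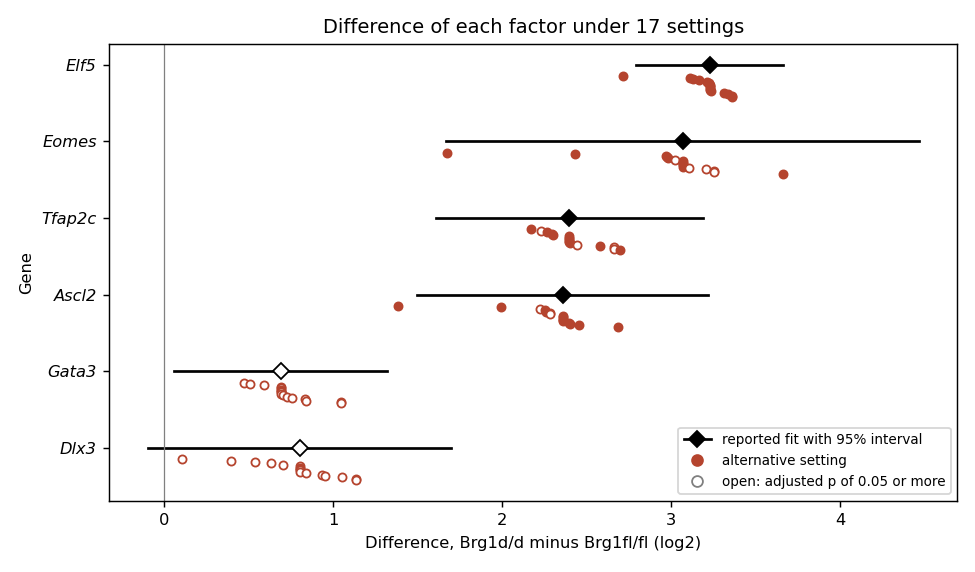
Difference between Brg1d/d and Brg1fl/fl (log2) for the 6 tested factors, in the reported fit (diamond, with its 95% interval) and under 16 alternative settings (circles), filled where the limma adjusted p was under 0.05. All circles lie above 0, from 0.11 for Dlx3 to 3.66 for Eomes, and those of Gata3 and Dlx3 are open throughout.

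Gata3, a zinc finger factor of trophectoderm and of many embryonic tissues, had levels of 1.03, 1.46 and 0.82 in Brg1d/d, against 0.71, 0.55 and -0.01 in Brg1fl/fl. The groups came within 0.11 of each other. The difference was 0.69 ± 0.26 (SE, n = 3 and 3), with a limma adjusted p of 0.135 and a 95% interval, not corrected for the number of genes, of 0.06 to 1.32. The same-day difference was 1.05. Dlx3, a homeobox factor of the labyrinth and the skin, had levels of -4.59, -3.99 and -4.40 in Brg1d/d, against -4.82, -4.62 and -5.94 in Brg1fl/fl. Its difference was 0.80 ± 0.37 (SE, n = 3 and 3), with a limma adjusted p of 0.192, an interval of -0.09 to 1.70 and a same-day difference of 1.14. The gap of 0.03 between the nearest arrays was not seen by rank, where Dlx3 lay above 43.8% to 49.4% of probes in Brg1d/d and above 36.9% to 45.8% in Brg1fl/fl. Without Brg1fl/fl replicate 3 the Dlx3 difference was 0.40. Every Brg1d/d array lay above every Brg1fl/fl array in all 6 factors tested and in 22.8% of all genes, while the groups were apart in either direction in 41.9% of genes. Brg1d/d replicate 2 lay above the 3 arrays of its day in 29.6% of all genes, and also in the 6 factors.

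Gcm1, which drives the formation of the labyrinth's syncytium, was well above background on 0 of 3 Brg1d/d arrays and 1 of 3 Brg1fl/fl arrays. Its signal was 20.1, 2.54 and 8.08 units in Brg1d/d, against 2.89 to 11.8 units in Brg1fl/fl. The groups overlapped fully, and the scanner software's own error reached 99.7% of the signal on Brg1d/d replicate 2. A difference in Gcm1 was therefore not detectable on these arrays.

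Other genes known from trophoblast progenitors rose in part. Of 25 genes of trophoblast stem cells and extraembryonic ectoderm, all tested, 7 rose and 0 fell in limma (5.26% and 5.3% of all genes). At an unadjusted p under 0.05 the counts were 10 and 1 (17.8% and 14.7% of all genes). The median difference of the 25 genes was 0.57 with a same-day median of 0.53, and over all genes these medians were 0.07 and 0.00. Bmp8b, a BMP ligand of the extraembryonic ectoderm, rose 8.93-fold, from a probe at -0.51, -0.11 and -1.22 in Brg1d/d against -3.95, -3.89 and -3.48 in Brg1fl/fl. Esrrb, a nuclear receptor that helps maintain trophoblast stem cells, rose 4.65-fold, and Gata2, a zinc finger factor related to Gata3, rose 4.22-fold. Hand1, which promotes giant cells and also acts in heart and lateral mesoderm, rose 2.67-fold, and Bmp4, a BMP ligand, and Klf5, a zinc finger factor, were also among the 7. Tead4 did not pass, at a log2 difference of 0.63 (limma adjusted p 0.222). Fgfr2 and Sox2 lay lower in Brg1d/d and did not pass either, at -0.50 and -0.70 (limma adjusted p 0.107 and 0.238). Bmp4, Klf5, Fgfr2 and Sox2 were named after their values were seen. Cdx2, which marks trophoblast stem cells but at this stage also the tail end of the embryo, had levels of 4.10, 4.25 and 3.76 in Brg1d/d against 4.20, 3.41 and 3.55 in Brg1fl/fl, with a limma adjusted p of 0.421. The count of 7 was 3 without Brg1d/d replicate 1, Brg1d/d replicate 3 or Brg1fl/fl replicate 2, 3 with the replicate number as a block, 1 with the spike-in split as a block and 0 with scan day as a block.

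Among genes of differentiated trophoblast, 3 of the 16 tested rose and 0 fell in limma (5.26% and 5.3% of all genes). At an unadjusted p under 0.05 the counts were 7 and 2 (17.8% and 14.7% of all genes), and the list's median was 0.36. Among the 3 that rose, Cebpa, a leucine zipper factor, rose 3.20-fold and the zinc finger factor Ovol2 2.67-fold. Prl3d1, placental lactogen I of giant cells, had levels of 0.95, 0.61 and -2.11 in Brg1d/d, against -4.64, -3.87 and -1.48 in Brg1fl/fl. The groups overlapped, because Brg1d/d replicate 3 lay below Brg1fl/fl replicate 3, and the limma adjusted p was 0.108. No array read Tpbpa or Tpbpb of spongiotrophoblast, Ctsq of sinusoidal giant cells or Synb of the syncytium well above background. The summed linear level of the progenitor list was 230 to 280 in Brg1d/d and 105 to 238 in Brg1fl/fl, and that of the differentiated list 147 to 195 and 144 to 209, both in units of the array's 75th percentile. A summed level is set mostly by the brightest probes of a list. In the progenitor list Rhox5 was bright, at 6.87, 7.09 and 6.72 in Brg1d/d against 4.18, 6.67 and 6.97 in Brg1fl/fl (limma adjusted p 0.380). The lowest progenitor sum, 105, was that of Brg1fl/fl replicate 1, against 204 and 238 in Brg1fl/fl replicates 2 and 3.

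**Figure D3:**
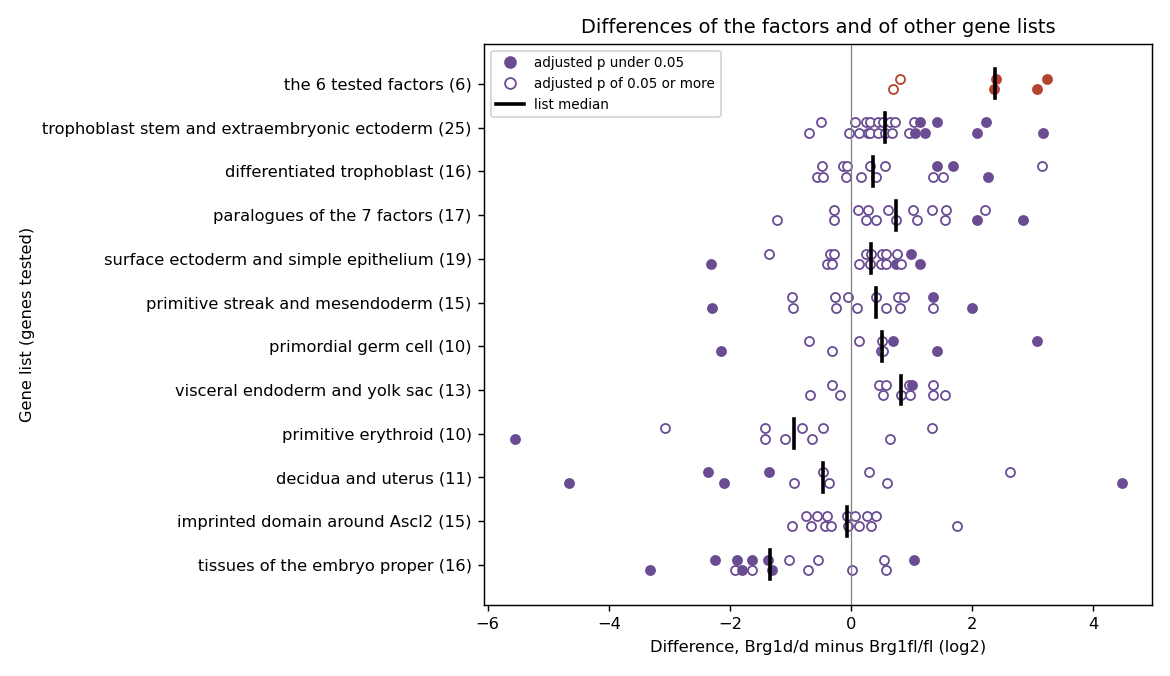
Differences between Brg1d/d and Brg1fl/fl (log2) of the 6 tested factors (red) and of the tested genes of 11 lists (violet), each point 1 gene, filled where the limma adjusted p was under 0.05, with a bar at each list's median. The factors' median of 2.38 lies right of every list's, of which the highest is 0.82 for yolk sac, and tissues of the embryo proper lie lowest at -1.34.

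Genes related to the factors by family moved unevenly. Of 17 paralogues tested, 2 rose and 0 fell in limma (5.26% and 5.3% of all genes). At an unadjusted p under 0.05 the counts were 7 and 0 (17.8% and 14.7% of all genes). The paralogues had medians of 0.74 over all arrays and 0.28 within the shared day. Dlx1, a homeobox factor of forebrain and branchial arches, rose 7.15-fold, and Gata2 is the other of the 2. Under a filter asking for all 6 arrays well above background, which Gata2 meets, 1 paralogue rose. The call of Dlx1 therefore depended on the filter. With 1 array left out the number that rose was 1 to 4, being 1 without Brg1d/d replicate 1, Brg1d/d replicate 3 or Brg1fl/fl replicate 2 and 4 without Brg1d/d replicate 2 or Brg1fl/fl replicate 3. Tfap2a, the AP-2 factor of surface ectoderm and neural crest, had a difference of 0.25 ± 0.29 (SE), and Gata6, of endoderm, 0.11 ± 0.15. In the imprinted domain around Ascl2, 0 of 15 genes passed in either direction in limma (1 and 2 fell without Brg1d/d replicate 2 and Brg1fl/fl replicate 1), and 0 and 4 had an unadjusted p under 0.05 upwards and downwards, against 17.8% and 14.7% of all genes. The gene of that domain with the smallest p was Cdkn1c, a cell cycle inhibitor, at -0.75 ± 0.21 (SE) with a limma adjusted p of 0.0749. Phlda2, a growth restrainer of placenta, stood at 0.41 ± 0.25 (SE).

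Markers of the other tissues in which these factors act did not all move in one direction. The surface ectoderm, primitive streak and germ cell lists had median differences of 0.33, 0.41 and 0.50, with same-day medians of 0.36, 0.42 and 0.44. Over all genes these medians were 0.07 and 0.00. At an unadjusted p under 0.05 in limma, 5, 6 and 4 of their genes rose and 1, 2 and 1 fell (17.8% and 14.7% of all genes). The counts below use the adjusted p, which 5.26% and 5.3% of all genes passed upwards and downwards. In whole-embryo RNA, a change in the number of cells of a type and a change of RNA per cell cannot be told apart. Of 19 genes of surface ectoderm and simple epithelium, 3 rose and 1 fell. Rab25, Perp and Esrp1 rose 2.21-fold, 1.99-fold and 1.67-fold. Krt7, a keratin of simple epithelia and of trophoblast, fell by 2.32 on the log2 scale. Krt8, Krt18, Grhl2 and Cldn6 did not pass, with log2 differences of 0.57, 0.52, 0.33 and 0.58. Epcam and Trp63, at -0.35 and -1.36, did not pass either. Of 15 primitive streak genes, 2 rose and 1 fell. Mesp1, of nascent mesoderm, rose 3.97-fold and Lhx1 2.56-fold, and Tbx6, of presomitic mesoderm, fell by 2.30 on the log2 scale. T, Mixl1, Gsc and Evx1 did not pass, with log2 differences of -0.26, 0.41, 0.77 and -0.97. Of 10 germ cell genes, 3 rose and 1 fell. Pou5f1, of germ cells and of the pluripotent epiblast, rose 8.39-fold, Dazl 2.67-fold and Prdm1 1.61-fold, and Alpl, alkaline phosphatase, fell by 2.15. Dppa3 and Dnd1 did not pass, with log2 differences of 0.50 and 0.53. Dazl was well above background on 3 of 3 Brg1d/d arrays but 2 of 3 Brg1fl/fl arrays, so it was tested through the group where it was higher. With a filter asking for all 6 arrays, 2 germ cell genes rose. The summed linear level was 317 to 339 in Brg1d/d and 184 to 284 in Brg1fl/fl for the epithelial list, 16.7 to 20.2 and 13.4 to 19.3 for the streak list, and 7.41 to 8.50 and 9.86 to 16.5 for the germ cell list. Alpl was bright enough to set the last of these, and over the 9 other tested germ cell genes, a choice made after seeing the values, the sum was 6.22 to 6.99 in Brg1d/d and 4.88 to 7.69 in Brg1fl/fl, so the groups overlapped. Without Brg1d/d replicate 1, Brg1d/d replicate 3, Brg1fl/fl replicate 2 or Brg1fl/fl replicate 3, 0 epithelial and 0 streak genes rose and 0 or 1 germ cell genes did. Krt7 missed the threshold without Brg1d/d replicate 1 or Brg1fl/fl replicate 2, Tbx6 without Brg1d/d replicate 1 or 3, and Alpl without Brg1d/d replicate 1 or 3 or Brg1fl/fl replicate 2. The part of these tissues in the factors' differences was not tested.

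Extraembryonic and maternal markers differed between samples as well. Of 13 visceral endoderm and yolk sac genes only Sox17, an endoderm factor, rose, by 2.02-fold, and 0 fell in limma (5.26% and 5.3% of all genes). At an unadjusted p under 0.05 the counts were 1 and 0 (17.8% and 14.7% of all genes). The list's summed level was 392 to 452 in Brg1d/d and 101 to 483 in Brg1fl/fl, the lowest being Brg1fl/fl replicate 1, in which the median gene lay 2.75 below the mean of the other controls. Sox17 missed the threshold without Brg1d/d replicate 1 or 3 or Brg1fl/fl replicate 2 or 3, and without Brg1fl/fl replicate 1 the number of yolk sac genes that fell was 3. Eomes was also lowest in that sample, but Elf5, Tfap2c and Gata3 were highest there among the Brg1fl/fl samples. Of 10 primitive erythroid genes, 0 rose and 1 fell in limma, or 0 and 3 at an unadjusted p under 0.05 (17.8% and 14.7% of all genes). The one that fell was Hemgn, a nuclear factor of red cell precursors, with levels of -6.07, -6.07 and -7.03 in Brg1d/d against -2.68, -0.18 and 0.37 in Brg1fl/fl. Its probe was well above background on 2 of 3 Brg1d/d arrays, and without Brg1fl/fl replicate 1 the number that fell was 8. Hemgn missed the threshold without Brg1d/d replicate 1, Brg1d/d replicate 3 or Brg1fl/fl replicate 2. The summed level of this list was 65.2 to 79.0 in Brg1d/d and 71.3 to 289 in Brg1fl/fl.

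Of 11 decidua and uterus genes, 1 rose and 4 fell in limma (5.26% and 5.3% of all genes), or 3 and 6 at an unadjusted p under 0.05 (17.8% and 14.7%). Prl8a2, a prolactin of the decidua, had levels of -1.18, -1.59 and -2.52 in Brg1d/d, against -7.96, -6.92 and -3.83 in Brg1fl/fl, and was well above background on 1 of 3 Brg1fl/fl arrays. Prl8a2 missed the threshold without Brg1d/d replicate 1 or 3 or Brg1fl/fl replicate 1 or 2. Lum, Des and Dcn, of connective tissue and muscle, fell, with log2 differences of -4.65, -2.37 and -2.11. The list's summed level was 2.55 to 2.87 in Brg1d/d and 6.14 to 13.2 in Brg1fl/fl, and no array read the uterine gene Esr1 or the prolactin gene Prl3c1 well above background. Prl8a2, the gene that rose, went the other way from this sum, and the amount of maternal tissue was not tested. Of 16 genes of the embryo proper, 1 rose and 7 fell in limma (5.26% and 5.3% of all genes). At an unadjusted p under 0.05 the counts were 2 and 10 (17.8% and 14.7% of all genes). The summed level of the 16 genes was 26.1 to 30.9 in Brg1d/d and 77.8 to 111 in Brg1fl/fl. Myl7, an atrial myosin light chain, En2, of the midbrain, Meox1, of the somites, and Pax6, of the nervous system, had log2 differences of -3.32, -2.26, -1.89 and -1.81. All 16 were well above background on every array of both genotypes. The count of 7 was 1 without Brg1d/d replicate 1, 2 without Brg1d/d replicate 3 or Brg1fl/fl replicate 2, and 0 with scan day as a block. The part of the embryo's makeup in the factors' differences was not tested.

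The genes whose pattern over the 6 arrays was most like that of each factor were found by the root mean square difference between log2 levels, each gene centred on its own mean, among the 14205 genes that every array read well above background. For Elf5 they were Svop, which encodes a synaptic vesicle protein (0.12), and Slc32a1, the vesicular transporter of GABA and glycine (0.17). For Eomes they were Dppa4, a gene of pluripotent cells (0.28), and Arl14 (0.29). Dppa4 and Arl14 shared with Eomes a low Brg1fl/fl replicate 1, at -6.05 for Dppa4 and -5.42 for Arl14, against -3.21 and -3.02 in Brg1fl/fl replicate 3. The nearest to Tfap2c was Prom2, a membrane protein of epithelia (0.10), which like Tfap2c was lowest in replicate 3 of each genotype. For Ascl2 they were Itga7, an integrin subunit (0.24), and Esrrb (0.25). Tmprss4 and Plxdc2 were nearest to Dlx3 (0.20 and 0.22), and Dner and Ccdc163 to Gata3 (0.11 and 0.12). With 6 arrays many genes can lie this close to one another, and likeness is given as a description.

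**Figure D4:**
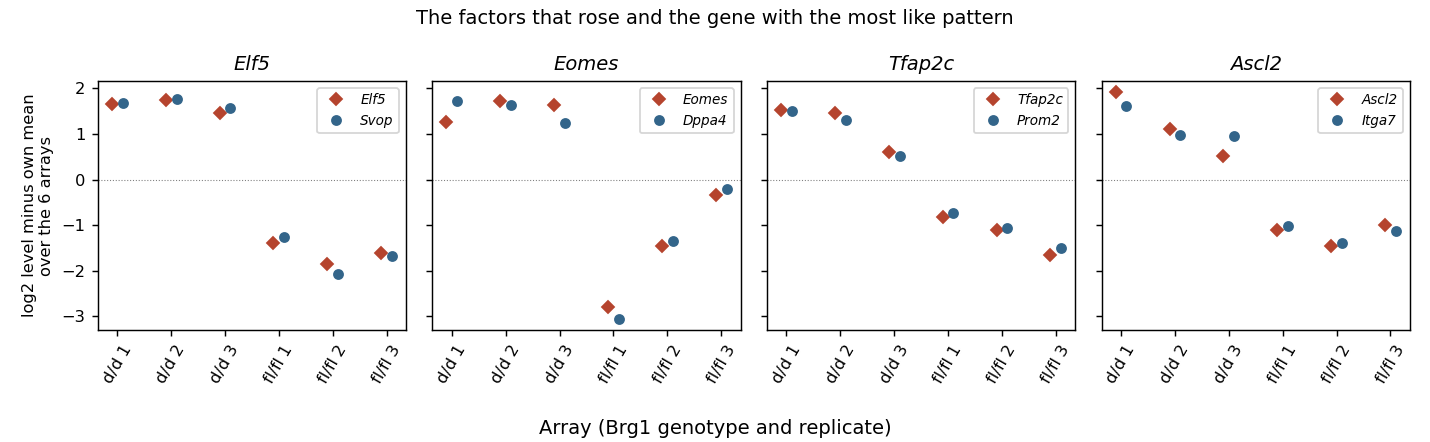
Level of each of the 4 factors that rose (red diamonds) and of the gene with the most like pattern (blue circles) on each array, as log2 level minus the gene's own mean over the 6 arrays. Brg1d/d arrays are left and Brg1fl/fl arrays right in each panel. The low Brg1fl/fl replicate 1 of Eomes and the low Brg1d/d replicate 3 of Tfap2c recur in Dppa4 and Prom2.

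Promoter sequence was at hand for Elf5, Eomes and Ascl2 among the factors that rose. The 250 bases before the transcription start are shown for those that the RefSeq promoter table (GRCm38.p6) holds. CpG content is a known divide between promoters that are silenced by DNA methylation, as that of Elf5 is in the mouse embryo, and those that usually are not. These arrays do not measure DNA methylation, and its part in the factors' differences was not tested. CG pairs are in capitals. Elf5 has 2 starts in the table, at chr2:103411848-103412097 and chr2:103423818-103424067, both on the plus strand. The Eomes window is chr9:118477939-118478188 on the plus strand and the Ascl2 window chr7:142969265-142969514 on the minus strand.
Elf5, first start: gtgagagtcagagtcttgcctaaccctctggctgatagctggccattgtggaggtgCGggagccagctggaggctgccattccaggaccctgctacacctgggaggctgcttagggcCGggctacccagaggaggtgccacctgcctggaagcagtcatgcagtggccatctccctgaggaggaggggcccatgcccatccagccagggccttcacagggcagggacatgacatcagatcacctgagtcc
Elf5, second start: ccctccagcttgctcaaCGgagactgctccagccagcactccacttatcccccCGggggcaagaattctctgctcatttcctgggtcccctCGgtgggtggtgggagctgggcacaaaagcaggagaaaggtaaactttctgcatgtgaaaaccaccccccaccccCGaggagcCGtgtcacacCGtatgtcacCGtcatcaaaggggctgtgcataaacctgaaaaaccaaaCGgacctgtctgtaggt
Eomes: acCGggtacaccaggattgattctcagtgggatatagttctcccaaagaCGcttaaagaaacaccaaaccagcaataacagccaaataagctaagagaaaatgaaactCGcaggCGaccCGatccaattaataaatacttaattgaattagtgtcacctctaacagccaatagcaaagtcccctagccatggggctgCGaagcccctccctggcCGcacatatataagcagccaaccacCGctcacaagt
Ascl2: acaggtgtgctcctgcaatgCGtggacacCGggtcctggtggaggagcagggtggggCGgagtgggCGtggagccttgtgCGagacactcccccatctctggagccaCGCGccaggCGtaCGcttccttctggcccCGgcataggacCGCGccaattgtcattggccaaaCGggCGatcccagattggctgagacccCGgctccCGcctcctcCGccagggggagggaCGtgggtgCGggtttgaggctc
The first Elf5 window holds 2 CG pairs and the second 8, Eomes holds 8 and Ascl2 19. The median over 32536 promoter windows of this length was 6, and 18.6%, 56.7%, 56.7% and 80.1% of windows had fewer. Gata3, which did not pass, holds 19, like Ascl2, and Gcm1 holds 1. Of 5 motifs searched on both strands, AGATAA for GATA factors (in 9.97% of all windows), CCGGAA for ETS factors (12.1%), GCCNNNGGC for AP-2 factors (13.8%) and AGGTGTGA for T-box factors (1.12%) were not found in the 4 windows shown. The E-box CANNTG, bound by helix-loop-helix factors and present in 66.2% of all windows, occurred 4 times and 1 time in the Elf5 windows, 2 times in the Ascl2 window and 0 times in the Eomes window. The Gata3 window held the ETS motif 1 time and the AP-2 motif 3 times. Tfap2c and Dlx3 are named only.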

How the data were processed

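RNA of whole E8.5 mouse embryos, 3 Brg1d/d and 3 Brg1fl/fl, was labelled with Cy3 and read on 1-colour arrays. The deposited intensity values come from Feature Extraction 9.5 (Agilent), per the submitters' processing notes. Per the file headers they are background-subtracted, and flags of 0 or 1 (unit: other) mark saturated, outlier and clearly detected spots. The deposited series table held the same intensity values at 100% of spots (relative tolerance 0.0001) and was not needed.

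Control spots were removed, as were the 53 to 83 outlier spots of each array, spots of a probe averaged, and log2 signal taken minus each array's 75th percentile, which was 959 to 1630 units. A probe was tested if 1 genotype or both had it well above background on every array, with limma 3.58.1 in R 4.3.3 (lmFit and eBayes, two-sided) and Benjamini-Hochberg adjustment over all 27854 probes, at a threshold of 0.05. A gene was read through its probe with the highest mean. The members, the 11 gene lists and the tests were chosen with earlier results of these data known. Named genes were every member, of each list up to 4 genes with the largest differences that passed or else the smallest p, the 2 genes most like each member, and Smarca4; some genes that this takes in are not reported here, and others named serve the description of a list and were chosen after their values were seen. The depth of an array is its signal over background, and 3 arrays per genotype limit precision. Whether replicates came from separate litters is not given, although the labels call them biological. The fit was tested on simulated data. Python 3.11.15 read the files and matplotlib 3.10.9 drew the plots. Genes were named with RefSeq tables of GRCm38.p6. The alternatives were median and quantile scaling, normexp background correction, 2 other filters, trend and robust eBayes, slide, scan day, spike-in split or replicate number as a block, and each array left out.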

Additional observations from a re-analysis of the deposited data

How the results depend on the processing

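The 4 factors that passed did so under median scaling, quantile scaling, normexp, the stricter filter and the trend, and all 6 tested factors stayed positive under all 16 alternatives. They also passed with slide as a random block, but no slide held both genotypes, so that block cannot remove a slide effect. The number of factors, which is also the number of their probes, that passed was 1 with the spike-in split as a block, 0 with scan day as a block, and 1 to 4 with 1 array left out (1 without Brg1fl/fl replicate 2, 2 without Brg1d/d replicate 1, 3 without Brg1d/d replicate 3). Of all probes, 2610 passed, against 170 with the spike-in split as a block, 0 with scan day as a block in limma (3033 at an unadjusted p under 0.05, and 5 of the 6 factors), 1121 without a filter and 473 to 5503 with 1 array left out. Without Brg1d/d replicate 1, replicate 2 or replicate 3 the count was 498, 5503 or 510, and without Brg1fl/fl replicate 2 or 3 it was 473 or 1450. With the replicate block, 897 probes and 4 factors passed. The replicate numbers gave no clear sign of pairing, as deviations from the group means correlated at -0.13, 0.08 and 0.09 within numbers 1, 2 and 3. Brg1d/d replicates 2 and 3 correlated best with their own number, and Brg1d/d replicate 1 with Brg1fl/fl replicate 3 (0.11). Correlations this weak, from so few arrays, cannot settle whether the samples were paired. Dim signal over background limits Gcm1, Eomes, Dlx3 and Ascl2 most. Scaling on the median moved the median difference of all probes by about 0.1, to -0.03 against 0.07.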
